A study of Mus musculus with 27 samples.

Results

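The 10 genes described here encode nuclear subunits of the mitochondrial respiratory chain and ATP synthase: Ndufs1 and Ndufv1 (complex I), Sdha and Sdhb (complex II), Cyc1, Uqcrc1 and Uqcrc2 (complex III), Cox4i1 (complex IV), and Atp5a1 and Atp5b (ATP synthase). They were chosen by symbol, and are 10 of 77 nuclear subunit genes listed for the chain and of 21887 nuclear coding genes that RefSeq places on GRCm38.p6, the mouse assembly on whose chromosomes mm10 rests. All 10 were found there. A gene was taken to have a peak where at least 1 base of a deposited peak lay in the gene or within 1 kb of it. The peaks come from CUT&RUN, in which an antibody directs cleavage of the chromatin around its target so that the released fragments mark where the target sits. Primary hepatocytes were isolated from Alb-cre:Acly f/f mice (AclyKO, here KO), in which Cre under the albumin promoter acts in hepatocytes on a floxed Acly gene, and from WT mice, and went into culture 24 hours after isolation. The groups were KO hepatocytes in hypoxia-reperfusion (HR), WT hepatocytes in HR and WT hepatocytes in normoxia, and no KO hepatocytes in normoxia were among the samples analysed here. Each group had 1 library with an antibody to H3K27ac and 1 with an antibody to H3K9ac. WT hepatocytes of both conditions also had 1 library with an anti-FLAG antibody for ACLY, and the labels do not say how tagged ACLY came to be in WT cells. They do not give the sex, age or number of the mice behind a library either.

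The respiratory chain passes electrons from NADH and succinate through complexes I to IV to oxygen and pumps protons across the inner mitochondrial membrane, and ATP synthase uses the proton gradient to make ATP. Most subunits are encoded in the nucleus, and their promoters in mammals are known for GC-rich sequence and for sites of NRF1, GABP (an ETS factor), Sp1 and YY1. Hepatocytes are rich in mitochondria, and oxygen loss followed by its return stops and restarts the chain. ACLY, ATP-citrate lyase, cleaves citrate to acetyl-CoA, the acetyl donor for histone acetylation. H3K27ac marks active promoters and enhancers, and H3K9ac mainly marks active promoters.

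With 1 library per antibody and group there is no replicate check, no test was made, and every difference below is between these libraries and not shown to be between the conditions. The H3K27ac lists held 14418 peaks in KO HR, 8252 in WT HR and 5655 in WT normoxia, with median widths of 3845, 7410 and 10340 bp. The H3K9ac lists held 8837, 7593 and 6513 peaks, with median widths of 2961, 6400 and 7790 bp in the same order of groups. The WT HR ACLY-FLAG list held 3666 peaks of a median 1730 bp, and the WT normoxia ACLY-FLAG list held 1 peak, so ACLY-FLAG could not be compared between conditions. Peak boundaries fell on a 10-bp grid for 0.943% (H3K27ac) and 1.01% (H3K9ac) of peaks in the KO lists and for 99.98 to 100% in the WT lists, so KO and WT lists were made differently and genotype and list construction cannot be told apart. The lists give no read counts, so the depth is unknown and no counting interval can be given, and a gene without a listed peak is not shown to lack the mark. Of 10 hepatocyte markers, 8 had an H3K27ac peak in every group, among them Alb, Apoa1 and Hnf4a. With H3K9ac 8 had a peak in KO HR, 7 in WT HR (without Fga) and 8 in WT normoxia. None of 6 stellate markers had a peak in any list, and 1 of 6 immune markers (Cd68) had one in every acetylation list. Of 6 endothelial markers 2 (Stab2 and Lyve1) had H3K27ac in every group and none had H3K9ac. Of 6 cholangiocyte markers Sox9 and Cftr had H3K27ac peaks in KO HR, Cftr in WT HR and none in WT normoxia. Sox9 also had an H3K9ac peak in every group. ACLY-FLAG in WT HR stood at 5 of the hepatocyte markers, at Cd68 and at Sox9. The part of such cells in the results was not tested. Acly itself had a peak in all 6 acetylation lists, which checks nothing about the deletion. In such bulk samples a listed peak does not tell what share of the cells carried the mark.

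The promoters of 5 of the genes, those in the promoter table used here, are shown beside what the lists hold over them: Atp5b carried both acetylation marks and ACLY-FLAG, Sdhb and Sdha had H3K27ac peaks in both HR lists and none in the WT normoxia list, Ndufv1 had H3K9ac peaks alone, and Uqcrc1 had no listed peak. The sequences are from RefSeq (GRCm38.p6), 250 bases before to 50 bases after the annotated start, 5′ to 3′ on the strand of the gene. The start lies on chromosome 10 at 128083307 for Atp5b (plus strand), on chromosome 4 at 140961271 for Sdhb (plus), on chromosome 13 at 74350240 for Sdha (minus), on chromosome 19 at 4012755 for Ndufv1 (minus) and on chromosome 9 at 108936648 for Uqcrc1 (plus). Capitals mark matches, on either strand, to the letters searched: GCATGCGC for the core of an NRF1 site, CCGGAAG for ETS, GGGCGG for Sp1, AAGATGGCG for YY1, TGACGTCA for CREB and TATAAA for a TATA box.
Atp5b: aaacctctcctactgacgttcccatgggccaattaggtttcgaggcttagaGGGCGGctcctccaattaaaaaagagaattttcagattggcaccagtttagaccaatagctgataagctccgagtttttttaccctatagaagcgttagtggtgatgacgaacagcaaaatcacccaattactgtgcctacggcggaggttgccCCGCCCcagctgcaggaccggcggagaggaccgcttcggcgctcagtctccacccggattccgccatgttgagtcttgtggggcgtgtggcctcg
Sdhb: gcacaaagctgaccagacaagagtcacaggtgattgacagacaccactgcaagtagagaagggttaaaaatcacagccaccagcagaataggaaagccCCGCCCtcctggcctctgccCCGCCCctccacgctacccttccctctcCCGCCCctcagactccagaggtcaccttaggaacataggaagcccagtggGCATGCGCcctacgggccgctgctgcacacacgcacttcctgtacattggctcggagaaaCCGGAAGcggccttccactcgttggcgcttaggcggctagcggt
Sdha: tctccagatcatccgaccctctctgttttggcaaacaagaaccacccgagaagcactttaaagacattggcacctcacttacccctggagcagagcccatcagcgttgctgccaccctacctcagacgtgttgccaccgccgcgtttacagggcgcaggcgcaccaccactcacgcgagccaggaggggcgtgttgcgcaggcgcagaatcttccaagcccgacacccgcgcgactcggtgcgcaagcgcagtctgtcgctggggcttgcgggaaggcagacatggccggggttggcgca
Ndufv1: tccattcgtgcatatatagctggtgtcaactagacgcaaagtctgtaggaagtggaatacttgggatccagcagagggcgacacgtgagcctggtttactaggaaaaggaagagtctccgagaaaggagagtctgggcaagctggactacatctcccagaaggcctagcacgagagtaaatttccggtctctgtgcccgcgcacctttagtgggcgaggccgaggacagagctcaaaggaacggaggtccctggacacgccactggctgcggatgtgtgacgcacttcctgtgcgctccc
Uqcrc1: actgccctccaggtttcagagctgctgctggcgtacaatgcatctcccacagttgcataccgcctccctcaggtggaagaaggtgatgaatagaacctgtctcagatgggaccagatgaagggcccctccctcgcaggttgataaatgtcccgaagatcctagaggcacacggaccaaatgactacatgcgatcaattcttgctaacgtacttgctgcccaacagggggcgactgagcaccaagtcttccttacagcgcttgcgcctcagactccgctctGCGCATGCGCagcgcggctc

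Matches were found in 3 of the 5 promoters. Sdhb, the iron-sulfur subunit of complex II, held the NRF1 letters at -54 to -47 from the start, the ETS letters at 6 to 12, and the Sp1 letters 3 times in reverse complement. Uqcrc1, a core subunit of complex III, held the NRF1 letters on both strands of a palindrome at 30 to 39, where the matches overlap. Atp5b, the catalytic beta subunit of ATP synthase, held the Sp1 letters at -199 to -194 and -45 to -40. Sdha and Ndufv1 held none of the letters, which says nothing about binding elsewhere or to other letters. Among 65 promoters of 60 of the other 67 subunit genes, the NRF1 letters stood in 13.8%, against 3.52% of 21263 promoters of all coding genes with a listed promoter. The ETS letters stood in 23.1% of the other subunits' promoters, against 11.6% of all promoters, and the YY1 letters in 10.8%, against 1.83%. The Sp1 letters stood in 40.0%, against 46.2%, the CREB letters in 7.69%, against 2.23%, and the TATA letters in 9.23%, against 12.6%. The median number of CpG dinucleotides was 16 in the 5 promoters printed, 20 in those of the other subunits and 13 in all promoters. The median GC content was 56.3% in the 5 promoters printed, 58.7% in those of the other subunits and 56.3% in all promoters. A match is a description of the letters and not a bound site, and some genes have several promoters in the table.

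H3K9ac covered nearly all of the genes in every group, whereas H3K27ac covered fewer and differed more between the lists. An H3K27ac peak was listed at 8 of the 10 genes in KO HR, 7 in WT HR and 3 in WT normoxia. The share of all coding genes with an H3K27ac peak was 37.9% in KO HR, 30.3% in WT HR and 22.6% in WT normoxia. An H3K9ac peak was listed at 9 genes in KO HR, 9 in WT HR and 8 in WT normoxia, against 35.9%, 36.4% and 31.9% of all coding genes. All 3 genes with H3K27ac in WT normoxia (Ndufs1, Cyc1 and Atp5b) also had H3K9ac, 5 had H3K9ac alone and 2 had neither mark. In WT HR 7 had both marks, 2 had H3K9ac alone (Ndufv1 and Cyc1) and 1 had neither, and in KO HR the counts were 8, 1 (Ndufv1) and 1. Among all coding genes, both marks, H3K9ac alone and neither stood at 6937, 914 and 12669 genes in KO HR, 5978, 1983 and 13272 in WT HR, and 4384, 2598 and 14339 in WT normoxia. No gene of the 10 had H3K27ac without H3K9ac in any group. Among all coding genes H3K27ac alone stood at 1367 genes in KO HR, 654 in WT HR and 566 in WT normoxia.

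Between the WT lists, 5 of the 10 genes had H3K27ac in HR and not in normoxia (Sdha, Sdhb, Uqcrc2, Cox4i1 and Atp5a1), where 8.38% of all coding genes did, and 1 (Cyc1) in normoxia and not in HR, where 0.699% did. With H3K9ac, 1 gene (Sdhb) was in the HR list and not in the normoxia list (5.92% of all coding genes), and 0 were the other way round (1.45%). Between the HR lists, 1 gene (Cyc1) had H3K27ac in KO and not in WT (8.31% of all coding genes) and 0 in WT and not in KO (0.672%). With H3K9ac, 0 of the 10 differed between KO HR and WT HR in either direction, where 3.46% of all coding genes were in the KO list alone and 3.97% in the WT list alone. Sdhb was thus the 1 gene of the 10 with neither mark in the WT normoxia lists and both marks in the lists of KO HR and WT HR.

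**Figure D1:**
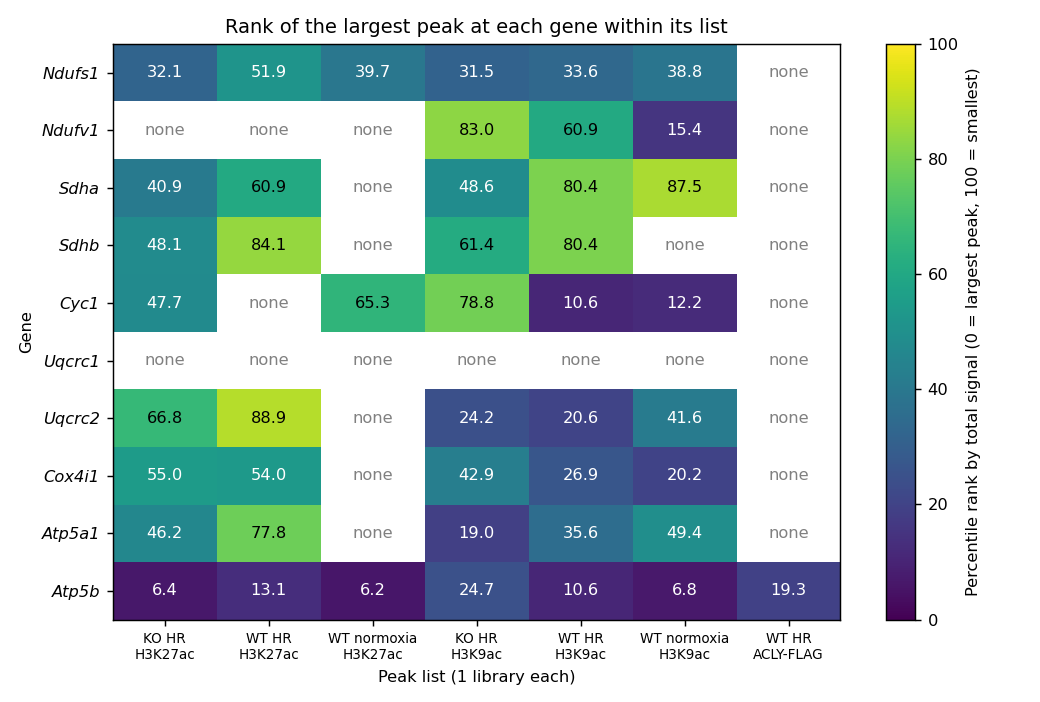
Percentile rank of the largest peak at each of the 10 genes (rows) within each peak list (columns, 1 library each), by total signal, where 0 is the largest peak of the list and 100 the smallest; "none" means no peak in the gene or within 1 kb. The H3K27ac column of WT normoxia holds 3 values and that of WT HR 7, the H3K9ac columns hold 9, 9 and 8, and Uqcrc1 is empty throughout.

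The H3K27ac contrast between WT HR and WT normoxia changed when the lists were trimmed. As deposited, the lists differ both in length and in peak width. The H3K27ac lists covered 81.0 Mb in KO HR, 87.5 Mb in WT HR and 81.5 Mb in WT normoxia, with fewer and wider peaks in WT normoxia. Lists trimmed to the same number of peaks therefore need not cover the same length of genome. What lies behind the contrast was not tested. Ranks are given within a list only and show no change between lists of different lengths. When each acetylation list was trimmed to its 5655 largest peaks by total signal, the length of the shortest, H3K27ac stood at 2 of the 10 genes in KO HR (Ndufs1 and Atp5b), 4 in WT HR (Ndufs1, Sdha, Cox4i1 and Atp5b) and 3 in WT normoxia. The genes with H3K27ac in WT HR and not in WT normoxia were then 2 (Sdha and Cox4i1), with 1 the other way round (Cyc1), and the difference between the HR lists turned: 0 genes had it in KO alone and 2 (Sdha and Cox4i1) in WT alone. Over all coding genes the trimmed lists gave 632 genes in WT HR alone and 494 in WT normoxia alone, and 215 in KO HR alone and 931 in WT HR alone. When instead the largest 50% of each list was kept, H3K27ac stood at 6 of the 10 genes in KO HR, 1 in WT HR (Atp5b) and 2 in WT normoxia (Ndufs1 and Atp5b). Then 0 of the 10 genes had it in WT HR and not in WT normoxia and 1 the other way round, so that contrast turned for the 10. It did not turn for the 77 subunit genes (8 against 2) or for all coding genes (1335 against 179). Between the HR lists, 5 of the 10 had it in KO and not in WT, with 0 the other way round. The same comparison gave 18 against 2 of the 77 and 1520 against 227 of all coding genes. H3K9ac stood at 7 of the 10 genes in each of the 3 lists of equal length. The H3K9ac peaks of Sdha and Sdhb fell outside the WT HR list of that length, and those of Ndufv1 and Cyc1 outside the KO HR list of that length. Of the H3K27ac peaks listed in WT HR and not in WT normoxia, those of Sdhb, Uqcrc2 and Atp5a1 ranked 6938, 7337 and 6418 in the WT HR list, beyond the length of the normoxia list, and those of Sdha and Cox4i1 ranked 5024 and 4456.

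**Figure D2:**
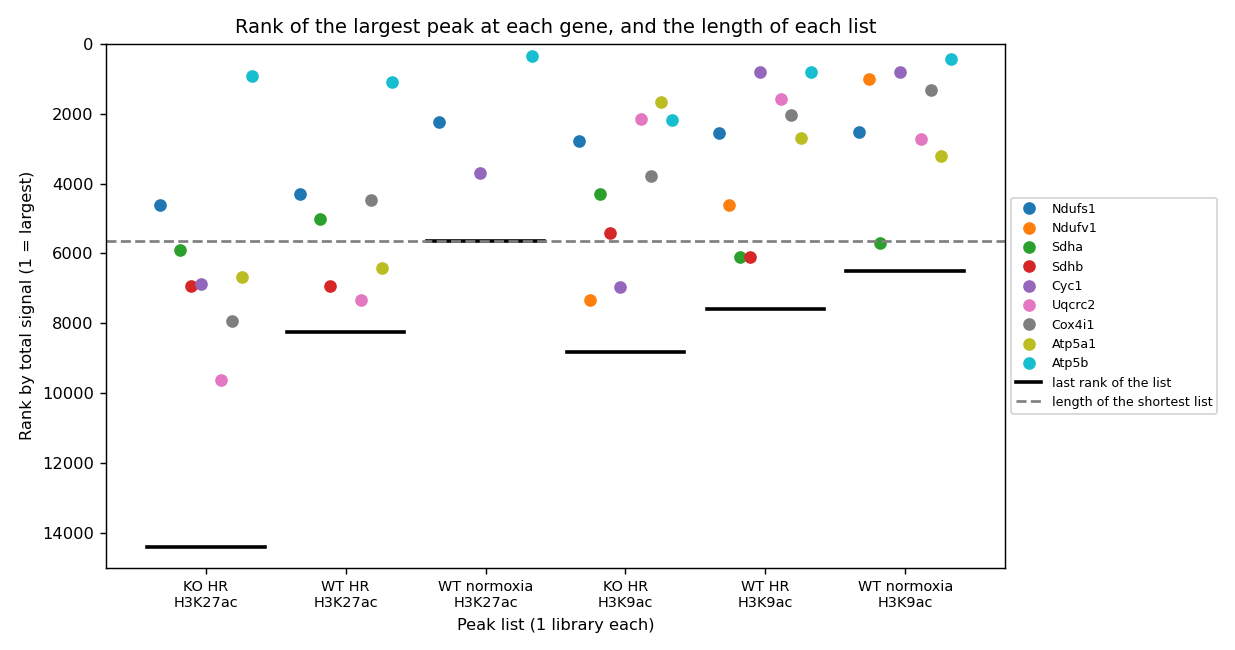
Rank by total signal (vertical axis, 1 is the largest peak, drawn at the top) of the largest peak at each gene in the 6 acetylation lists (horizontal axis, 1 library each); black bars mark the last rank of a list and the dashed line the length of the shortest, 5655. In the WT HR H3K27ac list the points of Sdhb, Uqcrc2 and Atp5a1 lie below the dashed line and those of Ndufs1, Sdha, Cox4i1 and Atp5b above it.

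Complex I oxidises NADH in its matrix arm, where Ndufv1 carries the flavin that takes up the electrons and Ndufs1 carries iron-sulfur clusters that pass them on. Ndufs1 (chromosome 1, 63143592 to 63176822) had a peak in all 6 acetylation lists. In KO HR its H3K27ac peak was 5.57 kb wide and ranked 4621 of 14418 (percentile 32.1, the share of the list with at least that signal), in WT HR it was 5.02 kb wide and ranked 4284 of 8252 (percentile 51.9), and in WT normoxia it was 13.65 kb wide and ranked 2247 of 5655 (percentile 39.7). The normoxia peak was not at the same place as the others. Both HR peaks lay over the upper-coordinate end of the gene, next to Eef1b2, with their maxima 94 bp (KO HR) and 123 bp (WT HR) beyond that end, whereas the normoxia peak lay over the lower-coordinate end, with its maximum 7147 bp outside the gene. The H3K9ac peaks of all 3 groups lay over the end next to Eef1b2, at percentiles 31.5, 33.6 and 38.8 in KO HR, WT HR and WT normoxia. So although Ndufs1 counts as covered by H3K27ac in each list, the end next to Eef1b2 was covered in the HR lists of KO and WT and not in the WT normoxia list.

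Ndufv1 (chromosome 19, 4007499 to 4012755, minus strand) had no H3K27ac peak in any group. The nearest ones lay 5.65 kb from the gene in KO HR, 5.06 kb in WT HR and 5.29 kb in WT normoxia. With H3K9ac the gene had a peak over its start in every group, 1.76 kb wide and at percentile 83.0 in KO HR, 7.77 kb and 60.9 in WT HR, and 18.0 kb and 15.4 in WT normoxia. The maximum lay 568 bp downstream of the start in KO HR and 180 bp in WT HR. In WT normoxia it lay 12050 bp downstream, beyond the far end of the gene, in a peak that also reached Doc2g, Nudt8 and Tbx10. The high rank in WT normoxia thus belongs to a domain over 4 coding genes, while the HR peaks touched no other coding gene within 1 kb.

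Complex II oxidises succinate to fumarate and is also an enzyme of the citric acid cycle. Sdha, its flavin-carrying catalytic subunit (chromosome 13, 74322255 to 74350240, minus strand), had H3K27ac over its start in KO HR (7.18 kb wide, percentile 40.9) and WT HR (13.52 kb, percentile 60.9). In WT normoxia the nearest H3K27ac peak lay 132.1 kb away. The HR maxima lay 154 bp (KO) and 140 bp (WT) downstream of the start. With H3K9ac Sdha had a peak over the start in all 3 groups, at percentiles 48.6, 80.4 and 87.5 in KO HR, WT HR and WT normoxia. The H3K9ac maximum lay 175 bp upstream of the start in KO HR and 165 bp downstream in both WT lists, and each of the 5 peaks was shared with Ccdc127.

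Sdhb, which carries the iron-sulfur clusters of complex II (chromosome 4, 140961271 to 140979198, plus strand), had H3K27ac and H3K9ac over its start in the HR lists of KO and WT and neither mark in WT normoxia. Its H3K27ac peak was 3.91 kb wide at percentile 48.1 in KO HR and 4.72 kb wide at percentile 84.1 in WT HR. Its H3K9ac peak was 2.86 kb wide at percentile 61.4 in KO HR and 4.53 kb wide at percentile 80.4 in WT HR. All 4 maxima lay inside the gene, 468 bp (KO) and 269 bp (WT) from the start with H3K27ac and 412 bp (KO) and 194 bp (WT) with H3K9ac. In WT normoxia the nearest peaks lay 141.5 kb away with H3K27ac and 150.9 kb away with H3K9ac. The WT HR peaks of Sdhb were among the smaller ones of their lists, and no peak at Sdhb reached another coding gene.

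Complex III passes electrons from ubiquinol to cytochrome c. Cyc1, its cytochrome c1 (chromosome 15, 76343513 to 76346260), had H3K27ac in KO HR (4.9 kb wide, percentile 47.7) and WT normoxia (9.93 kb, percentile 65.3) by the 1 kb rule, and not in WT HR. The KO HR peak began 982 bp past the upper-coordinate end, just inside the limit, and the nearest WT HR peak began 1151 bp past it, just outside. With a margin of 5 kb all 3 groups had a peak at Cyc1, and with the gene alone only WT normoxia did. The KO HR and WT normoxia maxima lay 4584 and 4315 bp past that end, in peaks shared with Maf1 and Sharpin. H3K9ac in turn covered part of Cyc1 in KO HR (1.98 kb wide, percentile 78.8) and all of it in WT HR (11.25 kb, percentile 10.6) and WT normoxia (11.63 kb, percentile 12.2). The H3K9ac maximum was 82 bp (KO HR) and 162 bp (WT HR) inside the lower-coordinate end, and 4355 bp past the upper end in WT normoxia. The large WT peaks of Cyc1 reached Gm35339, Maf1 and Sharpin as well.

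Uqcrc2, a core subunit of complex III (chromosome 7, 120635189 to 120659523), had H3K27ac over its lower-coordinate end in KO HR (2.36 kb wide, percentile 66.8) and WT HR (7.79 kb, percentile 88.9). In WT normoxia the nearest H3K27ac peak lay 443.2 kb away. Its H3K9ac peaks were at percentiles 24.2, 20.6 and 41.6 in KO HR, WT HR and WT normoxia. Maxima of both marks lay 121 to 411 bp inside that end, and no other coding gene was reached.

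Uqcrc1 encodes the other core subunit (chromosome 9, 108936648 to 108949641, plus strand) and had no peak of any antibody. The nearest peaks lay 104.7 kb (KO HR), 106.7 kb (WT HR) and 130.9 kb (WT normoxia) away with H3K27ac, and 109.0, 106.8 and 119.8 kb away with H3K9ac in the same order. The nearest WT HR ACLY-FLAG peak was 102.7 kb away. The gap was not at Uqcrc1 alone, since 5 of the 7 other annotated coding genes within 100 kb also had no peak in any list. Of the 77 subunit genes only Uqcrc1 and Ndufa1 had no peak in any of the 6 acetylation lists, where 12044 of the 21887 coding genes (55.0%) had none.

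Complex IV hands electrons to oxygen, and Cox4i1 encodes the widely expressed isoform of its subunit 4 (chromosome 8, 120668225 to 120674209). It had H3K27ac in KO HR (2.57 kb wide, percentile 55.0) and WT HR (8.03 kb, percentile 54.0), and the WT HR peak covered the whole gene. In WT normoxia the nearest H3K27ac peak lay 44.9 kb away. With H3K9ac it was at percentiles 42.9, 26.9 and 20.2 in KO HR, WT HR and WT normoxia, in peaks of 2.43, 6.46 and 12.13 kb. All 5 maxima fell 163 to 225 bp inside the lower-coordinate end, the end next to Emc8, although widths differed by several kb between the lists. By maximum instead of total signal the H3K9ac peaks of Cox4i1 stood at percentiles 5.60, 8.56 and 8.52, nearer the top of their lists than by total signal.

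In the catalytic head of ATP synthase, Atp5a1 encodes the alpha and Atp5b the beta subunit. Atp5a1 (chromosome 18, 77773768 to 77782869) had H3K27ac over its lower-coordinate end, next to Haus1, in KO HR (4.07 kb wide, percentile 46.2) and WT HR (4.69 kb, percentile 77.8). In WT normoxia the nearest H3K27ac peak lay 82.5 kb away. With H3K9ac it was at percentiles 19.0, 35.6 and 49.4 in KO HR, WT HR and WT normoxia, in peaks of 3.6, 5.31 and 6.0 kb. The H3K27ac maxima lay 39 bp (KO HR) and 527 bp (WT HR) inside the end, and the H3K9ac maxima 1071 bp, 1407 bp and 547 bp inside in KO HR, WT HR and WT normoxia.

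Atp5b (chromosome 10, 128083307 to 128090388, plus strand) had a peak in all 6 acetylation lists and in WT HR ACLY-FLAG. Its H3K27ac peaks were wider than the median of their lists: 18.2 kb at percentile 6.38 in KO HR, 18.3 kb at percentile 13.1 in WT HR and 49.8 kb at percentile 6.17 in WT normoxia. Each ran on into Baz2a, and the normoxia peak also reached Ptges3. The maximum was 123 bp downstream of the Atp5b start in WT HR, but 9009 bp downstream in KO HR and 12277 bp upstream in WT normoxia, both outside the gene. With H3K9ac the peak over the start had its maximum 51 bp (KO HR), 148 bp (WT HR) and 83 bp (WT normoxia) downstream of the start. In WT normoxia that peak was 18.45 kb wide, at percentile 6.76, and reached Baz2a. In the HR lists the stretch was split: 1 peak over the start (3.54 kb at percentile 24.7 in KO HR, 6.63 kb at percentile 41.0 in WT HR) and a separate one toward Baz2a (4.65 kb at percentile 25.1 in KO HR, 7.97 kb at percentile 10.6 in WT HR). The rank of Atp5b in WT HR H3K9ac thus comes from the Baz2a side and not from the peak at its own start.

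**Figure D3:**
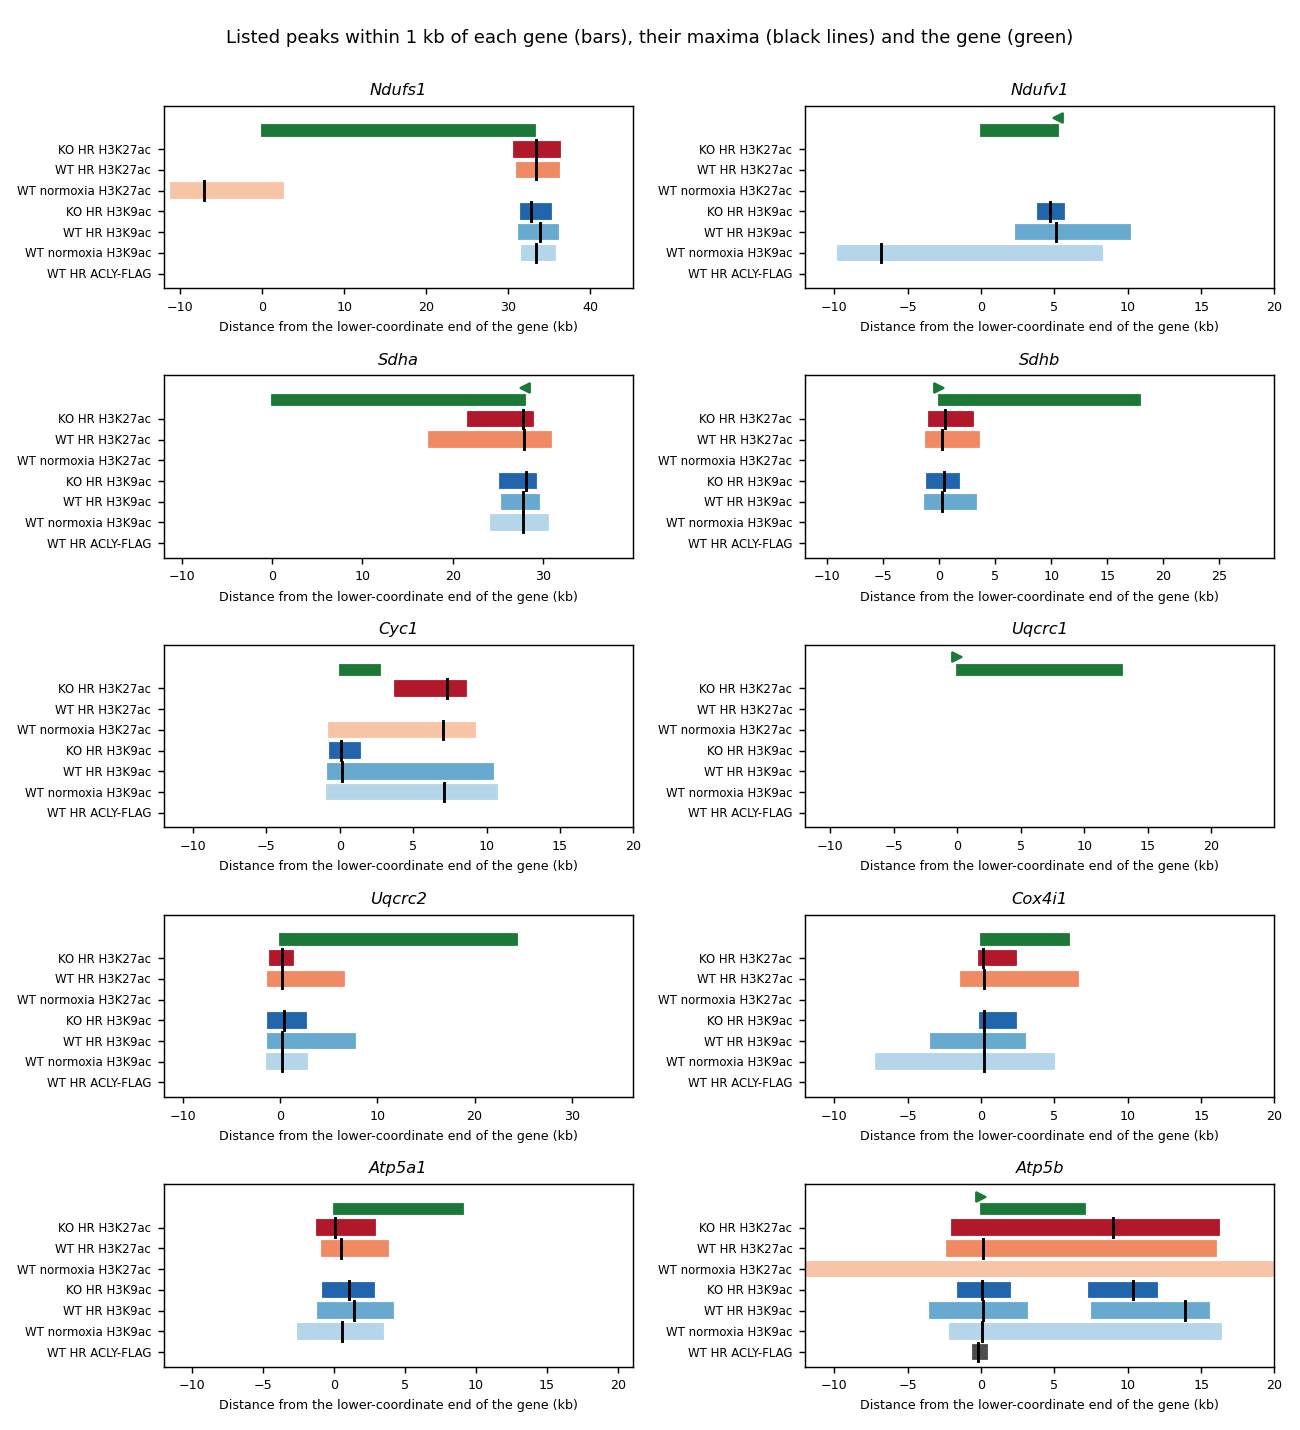
Position of every listed peak (bars) within 1 kb of each gene (green bar), with the middle of its maximum-signal region (black line), in kb from the lower-coordinate end of the gene; rows are the peak lists (1 library each) and the triangle marks the annotated start where the strand is known. The normoxia H3K27ac peak of Ndufs1 lies at the opposite end from the other 5 peaks, and that of Atp5b runs beyond both edges of its panel, which hides its maximum at 12277 bp upstream.

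Outside the WT normoxia H3K27ac list, most maxima at the covered genes lay near a gene end. The maximum of the largest peak lay within 1 kb of a gene end for 6 of 8 genes with H3K27ac in KO HR, 7 of 7 in WT HR and 0 of 3 in WT normoxia. Among all coding genes with a peak the shares were 53.2%, 50.4% and 39.4%. With H3K9ac the counts were 8 of 9, 7 of 9 and 6 of 8, where all coding genes with a peak had 65.6%, 67.2% and 63.8%. The largest peak was shared with another coding gene for 6 of 8, 5 of 7 and 2 of 3 genes with H3K27ac, against 37.6%, 43.3% and 44.8% of all coding genes with a peak. With H3K9ac it was shared for 4 of 9, 6 of 9 and 7 of 8, against 36.0%, 44.6% and 48.2%. A shared peak cannot be assigned to 1 of its genes. The median percentile of the covered genes was 47.0, 60.9 and 39.7 with H3K27ac in KO HR, WT HR and WT normoxia, against 36.7, 39.5 and 42.0 over all coding genes with a peak. With H3K9ac it was 42.9, 33.6 and 29.5, against 42.4, 41.8 and 42.7. Single genes spread widely around these medians, with Atp5b at percentile 13.1 and Uqcrc2 at 88.9 in WT HR H3K27ac, and Atp5b at 6.76 and Sdha at 87.5 in WT normoxia H3K9ac.

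ACLY-FLAG was listed at 1 of the 10 genes in WT HR, Atp5b, where 13.2% of all coding genes had such a peak. The Atp5b peak (chromosome 10, 128082771 to 128083710) was 940 bp wide and covered the start. It ranked 708 of 3666 by total signal (percentile 19.3) and stood at percentile 1.25 by its maximum. Its maximum lay 222 bp upstream of the start, inside the WT HR H3K27ac and H3K9ac peaks. Within the promoter printed above, the maximum region covers bases 25 to 34 (-226 to -217 from the start), tgggccaatt, which hold none of the letters searched. For the other 9 genes the nearest ACLY-FLAG peak lay between 49.7 kb (Sdha) and 1754 kb (Atp5a1) away.

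Among all 77 subunit genes, 16 (20.8%) had an ACLY-FLAG peak in WT HR, against 13.2% of all coding genes. These were Ndufa6, Ndufa7, Ndufa8, Ndufa11, Ndufb6, Ndufs7, Ndufs8 and Ndufv3 of complex I, Uqcrq of complex III, the electron carrier cytochrome c (Cycs), Cox5a and Cox7a2 of complex IV, and Atp5b, Atp5e, Atp5g3 and Atp5j of ATP synthase. Complex II had none of 4. The largest by rank was at Uqcrq, 103 of 3666, a peak of 2.25 kb shared with Gdf9, and the peak of Atp5j was shared with Gabpa, which encodes the DNA-binding subunit of GABP. In all, 7 of the 16 peaks were shared with another coding gene and 12 had their maximum within 1 kb of an end of the subunit gene, where among all coding genes with an ACLY-FLAG peak 32.1% and 65.2% did. Of the 16, 10 overlapped a WT HR H3K27ac peak and 14 a WT HR H3K9ac peak, where 1757 and 1832 of the 3666 ACLY-FLAG peaks did. The 3666 were counted wherever they lay, whereas the 16 all lay in or within 1 kb of a gene, so these are unlike sets. Ndufs8 and Ndufv3 had an ACLY-FLAG peak that overlapped neither mark.

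In the lists as deposited, the other subunits followed the same order as the 10 genes. All coding genes followed it too with H3K27ac, at 37.9% in KO HR, 30.3% in WT HR and 22.6% in WT normoxia. With H3K9ac their shares were 35.9%, 36.4% and 31.9%. Of the 67 other subunit genes, 59 had H3K27ac in KO HR, 44 in WT HR and 26 in WT normoxia, and 62, 62 and 52 had H3K9ac. By complex, H3K27ac stood at 30 (KO HR), 20 (WT HR) and 11 (WT normoxia) of 36 complex I genes, 4, 4 and 1 of 4 complex II genes, 9, 8 and 6 of 10 genes of complex III and cytochrome c, 10, 7 and 4 of 11 complex IV genes, and 14, 12 and 7 of 16 genes of ATP synthase and its inhibitor. In the lists as deposited the WT normoxia count was the lowest of the 3 in every complex, and complex II was fully covered in both HR lists. With lists of equal length that order did not hold: H3K27ac stood at 25 (KO HR), 33 (WT HR) and 29 (WT normoxia) of the 77, and at 8, 12 and 11 of the complex I genes. H3K9ac stood at 32, 32 and 26 complex I genes, 4, 4 and 3 complex II genes, 9, 9 and 9 genes of complex III and cytochrome c, 11, 10 and 8 complex IV genes, and 15, 16 and 14 ATP synthase genes. None of 8 tissue-restricted isoforms (such as Cox6a2, Cox7a1 and Cyct) had a peak of any antibody. They are listed as muscle or testis isoforms, although Cox4i2 is among them. Of all coding genes, 55.0% had no peak in any acetylation list. As among the 10 genes, H3K27ac without H3K9ac stood at 0 of 77 subunit genes in WT HR and in WT normoxia, and at 3 in KO HR (Atp5e, Ndufa13 and Ndufv3). A peak in all 6 acetylation lists stood at 28 of the 77 (36.4%), against 4042 of all coding genes (18.5%).

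In all, 23 of the 77 had H3K27ac in WT HR and not in WT normoxia, where 8.38% of all coding genes did, beside 1 the other way round (Cyc1), where 0.699% did. In complex I these were Ndufa2, Ndufa7, Ndufa8, Ndufa12, Ndufab1, Ndufb2, Ndufb4, Ndufb5 and Ndufs3. In the other complexes they were Sdhc, Uqcrb, Uqcrfs1 (the Rieske iron-sulfur protein of complex III), Cox6b1, Cox7c, Atp5g1, Atp5h, Atp5j2 and Atp5pb, besides 5 of the 10 genes. H3K27ac in KO HR and not in WT HR stood at 16 of the 77, where 8.31% of all coding genes had it, and in WT HR and not in KO HR at 0, where 0.672% did. Among them were Ndufa3, Ndufa11, Ndufb11, Ndufc1, Ndufs5 and Ndufv3 of complex I, with Cyc1, Cox6c, Cox7b, Cox8a, Atp5e and Atp5o. With lists of equal length the first difference shrank to 7 in WT HR alone and 3 in WT normoxia alone, and the second turned, with 1 in KO HR alone and 9 in WT HR alone. Over all coding genes these counts were 632 and 494 for the first and 215 and 931 for the second. H3K9ac was in WT HR and not in WT normoxia at 11 of the 77, including Sdhb, Cox5b, Ndufs5 and Atpif1 (the inhibitor of ATP synthase), and 0 were the other way round. Over all coding genes the shares were 5.92% and 1.45%. With lists of equal length the counts became 3 and 4 of the 77, and 759 and 582 of all coding genes. Between the HR lists, H3K9ac was in KO alone at 3 (Cox7b, Ndufa3 and Ndufc1) and in WT alone at 3 (Atp5e, Ndufa13 and Ndufb8). Each is 3.90% of the 77, near the shares of all coding genes, 3.46% and 3.97%. With lists of equal length the counts became 8 and 12 of the 77, and 449 and 1277 of all coding genes.

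**Figure D4:**
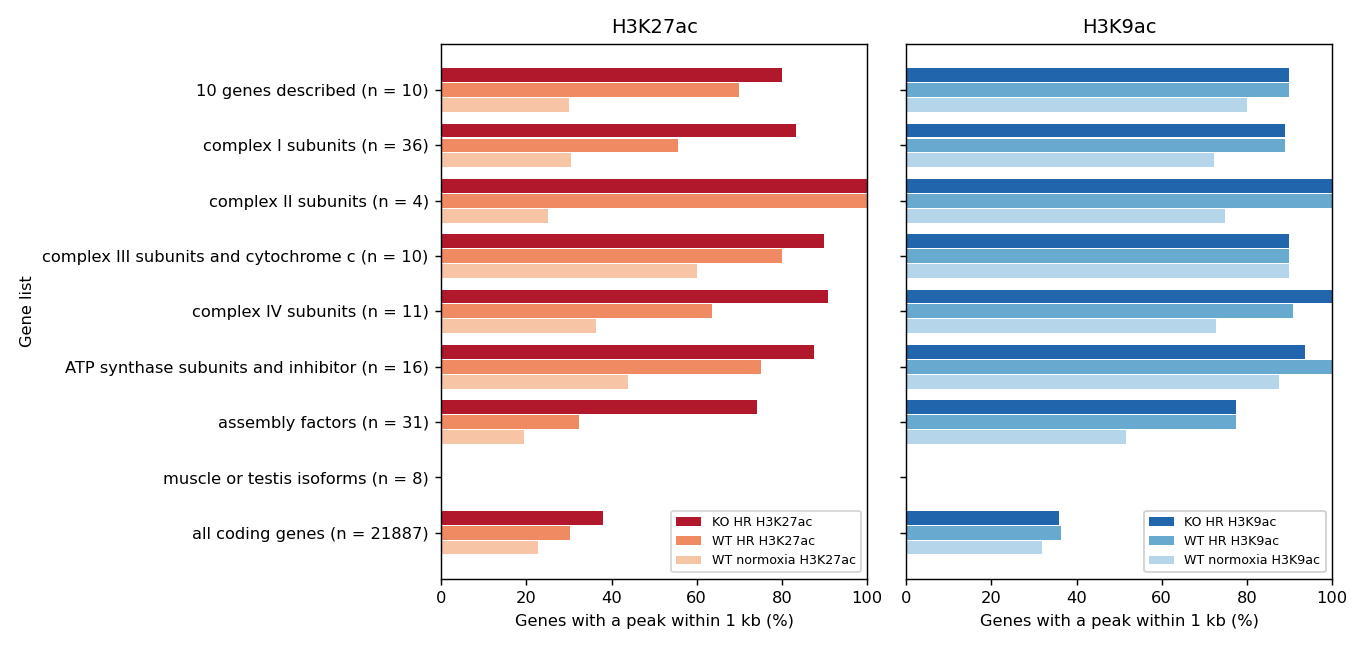
Share of genes (horizontal axis, %) with a peak in the gene or within 1 kb for the 10 genes, for the subunits of each complex, assembly factors, muscle or testis isoforms and all coding genes (rows), with H3K27ac (left) and H3K9ac (right); bars are KO HR, WT HR and WT normoxia from top to bottom, 1 library each. With H3K27ac the KO HR bar is the longest or level with WT HR in every row that has peaks, and the WT normoxia bar the shortest.

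The largest H3K27ac peaks at subunit genes in WT HR were those at Atp5c1 (rank 48, 67.16 kb, reaching Itih2 and Kin), Atp5d (rank 462, 15.61 kb, shared with Cbarp and Midn) and Uqcrq (rank 804, 18.26 kb, shared with Aff4, Gdf9 and Leap2). Atp5b ranked 1081 there. The maxima at Atp5c1 and Atp5d lay 7155 and 3477 bp from the nearest end of the subunit gene, so these large peaks were not centred on it. Over the 6 acetylation lists, the median percentiles of the 10 genes, with 100 for no peak, were 47.9 (KO HR), 80.9 (WT HR) and 100 (WT normoxia) with H3K27ac and 45.7, 34.6 and 40.2 with H3K9ac. Outside the gene lists used here, the coding genes nearest to this pattern by the summed absolute difference were Kif5a (10.7), Capn2 (18.5) and Tmem230 (23.8).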

How the data were processed

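What was analysed: the peak lists of 8 of 11 CUT&RUN samples. The other 3 are IgG controls, not analysed here, and so is the liver RNA (16 libraries, 4 per group), whose transcript identifiers are not paired with genes in the tables used here. Each list, as the authors deposited it, gives a position, a total signal and a maximum signal per peak, 1 library per list, in a scale and normalization that no source used here gives. The signal served only for ranks inside its own list. Per the submitters' processing notes, the tools were Trimmomatic and kallisto and the build mm10. For the CUT&RUN data the aligner and the peak caller are not given in the sources used here. Sample titles gave the groups.

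Computed here: overlaps (at least 1 base) of peaks with RefSeq genes (GRCm38.p6) plus 1 kb, in Python 3.11.15 with pandas 2.3.3 and numpy 2.4.6. The overlap step was tested on simulated data. Strand and promoter sequence were at hand for 17492 coding genes and 5 of the 10, so positions at the other 5 are from gene ends. The members and lists were chosen with earlier results of these data known. Beyond the 10 genes, named genes are, per list, those that differ between KO HR and WT HR or between WT HR and WT normoxia and those with ACLY-FLAG (alphabetical, at most 10 each), the 3 best ranked in WT HR H3K27ac, and the 3 coding genes of most similar ranks. Genes named as H3K27ac without H3K9ac, ACLY-FLAG without acetylation, or without any peak were chosen after their values were seen. Some genes that this rule names are not reported here. No test was made. Alternatives were the margin (0 or 5 kb), the window (1 kb around the start), an overlap of 500 bases, the largest 50% of each list, lists of equal length and other rankings.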

Additional observations from a re-analysis of the deposited data

How the results depend on the processing

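No paired analysis was possible because each antibody and group has 1 library and no result comes from a test. For the 10 genes and for all 77 subunits, the percentage of genes with a peak was compared under each alternative. Of these percentages, 69 stayed within 1.5 times the one reported and 13 did not. Within 1 kb of the annotated start the percentage is of fewer genes, those with a known strand. With the largest 50% of each list, H3K27ac stood at 37 (KO HR), 21 (WT HR) and 15 (WT normoxia) of the 77, H3K9ac at 40, 38 and 33, and ACLY-FLAG at 9. Of the 10 genes, 6 kept H3K27ac in KO HR, 1 in WT HR (Atp5b) and 2 in WT normoxia. The order of WT HR and WT normoxia thus turned for the 10 genes and not for the 77. With lists of equal length (5655 peaks), H3K27ac stood at 25 (KO HR), 33 (WT HR) and 29 (WT normoxia) of the 77 and at 2, 4 and 3 of the 10 genes, which turns the order of KO HR and WT HR. Within 1 kb of the annotated start, ACLY-FLAG was at 1 of 5 genes with a known strand, the same gene out of fewer. Trimming removes the smallest peaks of the longer lists by construction. With the gene alone, Cyc1 dropped out of KO HR H3K27ac (7 of 10), and with 5 kb it entered WT HR (8 of 10). Depth is unknown, so how many small peaks it limits was not tested.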

Other observations

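Other mitochondrial and metabolic gene lists are given as counts of genes with a peak, in the order KO HR, WT HR and WT normoxia. In the same order, 37.9%, 30.3% and 22.6% of all coding genes had H3K27ac and 35.9%, 36.4% and 31.9% had H3K9ac. ACLY-FLAG stood at 13.2% of all coding genes in WT HR. H3K27ac was in WT HR and not in WT normoxia at 8.38% of them, and in KO HR and not in WT HR at 8.31%. H3K9ac was in WT HR and not in KO HR at 3.97%. Of 31 assembly factors, which build the complexes without being part of them, 23, 10 and 6 had H3K27ac and 24, 24 and 16 had H3K9ac. Foxred1, Lyrm7, Uqcc1 and Atpaf2 had H3K27ac in WT HR and not in WT normoxia, and 13 others had it in KO HR and not in WT HR, among them Cox10, Cox11, Cox15, Cox17, Ecsit, Ndufaf1 and Sdhaf1. Of 78 genes of the mitochondrial ribosome 50, 32 and 21 had H3K27ac and 59, 57 and 47 had H3K9ac.

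Of 15 regulators of mitochondrial biogenesis, 14, 12 and 7 had H3K27ac and 11, 14 and 14 had H3K9ac. The coactivator genes Ppargc1a, Ppargc1b and Pprc1, with Tfam and Tfb2m (mitochondrial transcription), had H3K27ac in WT HR and not in WT normoxia. Polg (the mitochondrial DNA polymerase) and Tfb1m had H3K27ac in KO HR and not in WT HR, and Polg, Tfam and Tfb1m had H3K9ac in WT HR and not in KO HR. ACLY-FLAG in WT HR stood at 5 of the 15 (Gabpa, Gabpb1, Tfb1m, Tfb2m and Polg).

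Of 13 genes of the citric acid cycle, 12, 11 and 8 had H3K27ac and 12, 12 and 10 had H3K9ac, with Dld, Idh3g and Sucla2 in the WT HR H3K27ac list and not in that of WT normoxia. Of 15 glycolysis genes, which make ATP without oxygen, 13, 11 and 10 had H3K27ac and 13, 13 and 13 had H3K9ac, and Pgam1 alone was in the WT HR H3K27ac list and not in that of WT normoxia. ACLY-FLAG stood at 6 of the citric acid cycle genes, 5 of the glycolysis genes, 8 of the assembly factors and 17 of the mitochondrial ribosome genes. None of these counts was tested, and all are from the lists as deposited. With lists of equal length, 215 of all coding genes had H3K27ac in KO HR and not in WT HR, and 931 the other way round. In WT HR and not in WT normoxia it then stood at 632, and 494 were the other way round.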
